A study of Homo sapiens with 4 samples.

Results

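Genes that move newly made proteins into the endoplasmic reticulum (ER), fold them there and carry them in coated vesicles to and from the Golgi were compared between LNCaP and LN-35 cells. LNCaP, labelled wild type, is an established androgen-dependent line from a human prostate carcinoma. LN-35 is labelled as resistance cells with enzalutamide treatment. To raise it, LNCaP cells were first adapted to charcoal-stripped serum, meant to mimic androgen deprivation. Stepwise doses of enzalutamide, an inhibitor of the androgen receptor, followed. The sources used do not say if the drug or the stripped serum was still in the medium at harvest. Members were taken by gene symbol: SEC followed by a number (without the SEC14L genes), TMED followed by a number, PDIA, SSR followed by a number, SPCS, and 14 named genes of the COPI and COPII coats and of ER folding. This gave 60 of the 20332 genes in the table. The group was selected on results of the LNCaP against LN-35 contrast itself, that is on the fold changes between these 4 libraries. The values of that contrast are therefore a description, and the counts of members are no independent evidence of a direction. LN-35 comes from 1 parental line. Differences that arose during selection, passage or growth in stripped serum cannot be told apart from those tied to resistance.

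In human cells, signal peptides of secretory and membrane proteins direct ribosomes to the SEC61 channel, the TRAP complex (*SSR1* to *SSR4*) assists the channel, and signal peptidase cuts the signal peptide off. In the ER lumen, protein disulfide isomerases (the *PDIA* genes and *P4HB*) form and rearrange disulfide bonds, and calreticulin and calnexin hold glycoproteins while they fold. Folded cargo leaves in vesicles coated with COPII, and escaped ER proteins return in vesicles coated with COPI. The p24 proteins, encoded by *TMED* genes, act as cargo receptors in both directions. Prostate luminal cells, which LNCaP resembles, are secretory.

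Each line had 2 libraries, with totals of 12225173 to 15333722 estimated counts. Separate cultures are not stated for the libraries of a line, so the p-values reflect a spread between libraries that could be technical alone. Log2 CPM (counts scaled by library size with TMM factors) correlated at 0.99 within LNCaP and 0.988 within LN-35 over the tested genes, which are not independent replicates, and at 0.738 to 0.742 between the lines. Of 11 luminal prostate and LNCaP markers 8 were lower and 2 higher in LN-35. The LN-35 libraries thus no longer showed the full luminal profile of the parent. *ACP3*, 1 of the 8, passed the filter on low counts only through LNCaP. Of 7 neuroendocrine markers 5 were tested, and all 5 were higher in LN-35. *CHGA*, *CHGB* and *SCG3* passed the filter only through LN-35, so they could enter this count only as rises. *INSM1* (no counts) and *NCAM1* (0.063 and 0.072 CPM in LNCaP, 0 in LN-35) were not tested. *KRT5* and *TP63*, which mark basal cells, *CD3E* of T cells and the endothelial genes *CDH5* and *KDR* had no counts in any library, while *VWF* of the endothelial list was lower in LN-35 (5.52 and 6.67 against 0.333 and 0.724 CPM). The 6 leukocyte markers summed to 145 and 154 CPM in LNCaP and 13.8 and 17.1 CPM in LN-35, nearly all of it *LCP1*, and the 7 fibroblast markers to 36.8 to 45.4 and 45 to 47.3 CPM, most of it *COL1A1*. Of 4 tested fibroblast markers 3 were higher in LN-35 (*DCN*, *LUM* and *COL3A1*), with *DCN* at 0 in both LNCaP libraries and at 6.5 and 9.58 CPM in LN-35. All 3 passed the filter only through LN-35 and could therefore count only as rises. Mitochondrially encoded genes took 9.40% to 9.53% of the counts in LNCaP and 13.8% to 14.8% in LN-35, and no call of a member changed when they were left out. The part of the markers in the results was not tested, and in bulk RNA fewer cells of a type and less RNA per cell cannot be told apart.

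The members took a smaller share of the transcriptome in LN-35. Together they held 2.30% of the counts in each LNCaP library and 1.503% and 1.496% in the LN-35 libraries, and summed to 22378 and 22427 CPM in LNCaP against 15308 and 15516 CPM in LN-35, with no overlap between the lines. Of the 60 members, 59 passed the filter on low counts and were tested, and the remaining one, the p24 gene *TMED6*, was near 0 throughout (0 and 1 LNCaP counts, 2 and 9 LN-35 counts). Among the 59, 40 fell, 13 rose and 6 did not pass the test (edgeR quasi-likelihood, Benjamini-Hochberg adjusted p under 0.05 over all genes). Across all 13744 tested genes 71.8% passed, 35.5% as lower and 36.4% as higher. The median log2 fold change (LN-35 over LNCaP) was -0.46 for the members (quartiles -0.86 and 0.09) and -0.01 for all tested genes (quartiles -0.58 and 0.66). A fall of at least 2-fold was called for 11 members (14.2% of all tested genes) and a rise of at least 2-fold for 6 (18.4% of all tested genes). The 13 rises and the 6 of at least 2-fold include *COPZ2* and *SEC16B*, which passed the filter only through LN-35. They could therefore enter these counts only as rises.

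**Figure D1:**
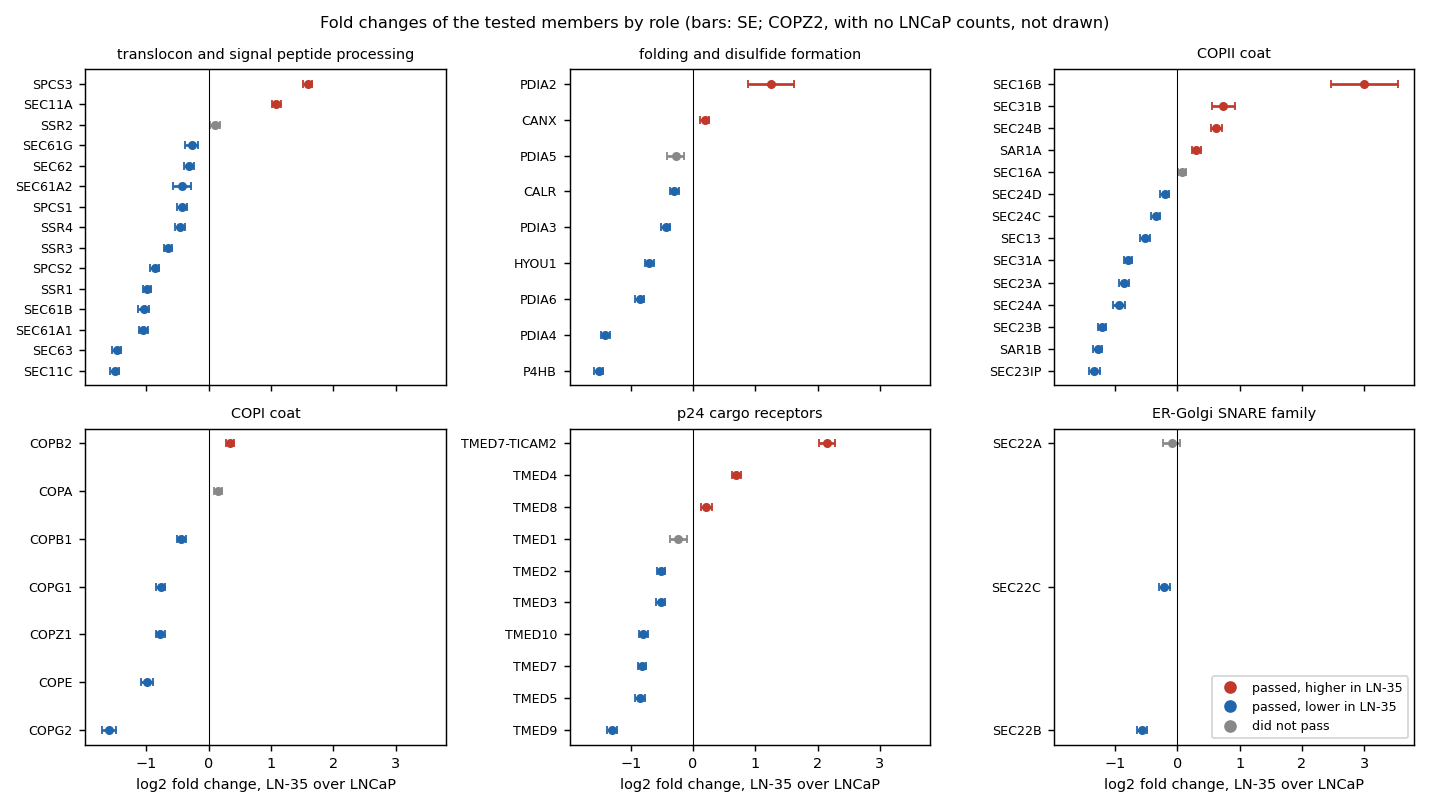
Log2 fold change (LN-35 over LNCaP, x axis) of 58 tested members, with 1 panel for each role; points are fitted values, bars the standard error (SE) and colours the outcome of the edgeR test over all genes. *COPZ2*, which had no LNCaP counts, is not drawn. In every panel most points lie below 0, with the rises of *SPCS3* (1.59), *SEC11A* (1.08), *PDIA2* (1.25), *SEC16B* (3.0) and *TMED7-TICAM2* (2.15) standing apart.

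The promoters of the members were read for short sequences known from the control of secretory genes, a property the symbols did not use. RefSeq promoter windows (GRCh38.p14, 250 bases before to 50 after each annotated start) were found for 55 of 60 members, all but *PDIA3*, *SEC24D*, *SPCS1*, *TMED4* and *TMED9*. Motifs were searched on both strands, and a gene counted when any of its windows held a match. The ER stress response element (CCAAT, any 9 bases, CCACG), which binds the stress factor ATF6 together with NF-Y, stood in 3 members (5.45%) and in 0.146% of the 10998 tested genes that had a window. Its second form (ATTGG, any base, CCACG) stood in 1 member (1.82%, against 0.118%). TGACGTGG, the core of a site for ATF6 and XBP1, was found in 11 members (20.0%, exact 95% interval 10.4 to 33.0%) and in 1.20% of the tested genes.

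ACGTGGC, known as the Golgi apparatus stress response element, was held by 22 members (40.0%, interval 27 to 54.1%) and by 5.68% of the tested genes or 3.95% of all 27305 genes with a window. It contains the reverse of CCACG and overlaps TGACGTGG where that is followed by C, so the counts of these motifs are not independent. The cAMP response element TGACGTCA was in none of the 55 members' windows (exact upper limit 6.49%) and in 3.76% of the tested genes. CCAAT alone was in 50.9% of the members and 43.5% of the tested genes, and CCACG, which stands in one direction or the other in all of these motifs except CCAAT and TGACGTCA, in 89.1% and 56.7%. Of the 22 members with ACGTGGC, 14 fell, 5 rose and 3 did not pass. The median log2 fold change of the members was -0.52 with a match and -0.51 without. Since the members were selected on these fold changes, the medians cannot show whether the motif goes with a direction. A match is a description of the letters and does not show that a factor binds there.

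**Figure D2:**
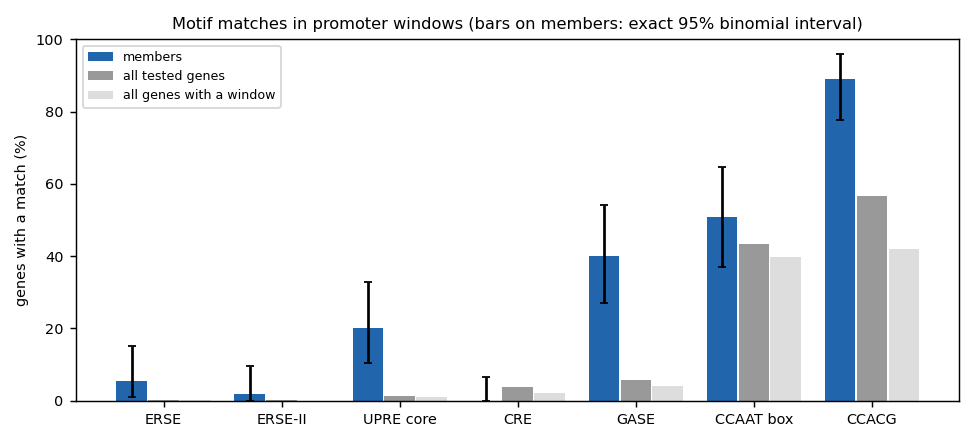
Share of genes (y axis, %) whose RefSeq promoter windows hold each motif (x axis), for the members, all tested genes and all genes with a window; bars on the members are exact 95% binomial intervals, which cover counting error only. ACGTGGC (GASE) was in 40.0% of members against 5.68% of tested genes, and CCAAT alone in 50.9% against 43.5%.

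Genes of the translocation channel and its partners were mostly lower in LN-35. Of 15 genes for translocation and signal peptide processing 12 fell, 2 rose and 1 did not pass. *SEC61A1* (ENSG00000058262, chromosome 3, 128051641 to 128071683), which encodes the pore subunit, had 1102 and 1019 CPM in the LNCaP libraries and 506 and 516 CPM in the LN-35 libraries. Both LN-35 libraries thus lay far below both LNCaP libraries, at a log2 fold change of -1.05 (SE 0.07). The small channel subunit *SEC61B* (ENSG00000106803, chromosome 9, 99222064 to 99230615) had 99.5 and 110 CPM in LNCaP and 53.4 and 48.1 CPM in LN-35. It fell by 1.04 (SE 0.09) on the log2 scale, and the other small subunit, *SEC61G*, by 0.28 (SE 0.10). The second pore gene *SEC61A2* (ENSG00000065665, chromosome 10, 12129637 to 12169961), a minor form at 22.5 and 20.0 CPM in LNCaP and 15.4 and 16.3 CPM in LN-35, fell by 0.43 (SE 0.14) and made up 3.71% ± 0.104 of the pair per kilobase of principal transcript in LNCaP and 5.61% ± 0.123 in LN-35 (SD, n = 2). The calls of *SEC61A2* and *SEC61G* rested on single libraries: without LN-35 replicate 1 their adjusted p was 0.0674 and 0.165, *SEC61A2* also lost its call without LNCaP replicate 1 (0.0736) and *SEC61G* without LNCaP replicate 2 (0.17).

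*SEC63* (ENSG00000025796, chromosome 6, 107867756 to 107958189) encodes the membrane protein that couples the channel to the luminal chaperone BiP. Its level was 493 and 478 CPM in LNCaP and 168 and 181 CPM in LN-35, which is 2.78-fold lower. *SEC62*, its partner in the channel complex, fell by 0.32 (SE 0.07) on the log2 scale, so the drop of *SEC63* was larger than that of its partner by more than either SE. Of the TRAP genes, *SSR1* was at 397 and 389 against 197 and 197 CPM, and fell by 1.00 on the log2 scale (SE 0.07). *SSR3* and *SSR4* fell by 0.66 and 0.46, while *SSR2* had 288 and 353 CPM in LNCaP and 345 and 343 CPM in LN-35 and did not pass (log2 fold change 0.10, SE 0.08, 95% interval -0.07 to 0.28). Without LNCaP replicate 2, *SSR2* stood at 0.25 and passed (adjusted p = 0.000515), and without LNCaP replicate 1 it was at -0.04, so its value rested on single LNCaP libraries.

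Transcripts of the signal peptidase subunits went in different directions. The enzyme carries either *SEC11A* or *SEC11C* as its catalytic subunit, together with *SPCS1*, *SPCS2* and *SPCS3*. *SEC11C* (ENSG00000166562, chromosome 18, 59139477 to 59158836) had 221 and 246 CPM in LNCaP and 83.0 and 80.7 CPM in LN-35. *SEC11A* (ENSG00000140612, chromosome 15, 84669538 to 84716716) moved the other way, from 104 and 118 CPM to 242 and 229 CPM. The lines did not overlap for either gene, and the log2 fold changes were -1.51 (SE 0.08) and 1.08 (SE 0.08). Scaled by the length of the principal transcript in GENCODE, *SEC11C* made up 74.3% ± 0.164 (SD, n = 2) of the summed catalytic transcripts per kilobase in LNCaP and 32.4% ± 0.443 in LN-35, so the form with more transcripts differed between the lines. With the summed exon length in place of the principal transcript the shares were 72.8% and 30.7%.

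The accessory subunits of signal peptidase also went apart. *SPCS3* (ENSG00000129128, chromosome 4, 176319964 to 176332245), which is required for cleavage, rose 3.0-fold from 146 and 147 to 429 and 451 CPM. *SPCS1* and *SPCS2*, which assist the enzyme, fell by 0.43 (SE 0.08) and 0.87 (SE 0.07) on the log2 scale. In LNCaP, *SPCS2* (167 and 176 CPM) and *SPCS3* had similar counts, and in LN-35 *SPCS3* lay far above *SPCS2* (97.5 and 90.4 CPM), a statement on counts that are not scaled by length.

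ACGTGGC is shown in 3 of the translocation genes that fell, with the motif in capitals and 15 bases on either side, read along the strand of the gene before a RefSeq start. They lie on GRCh38.p14 at chr18:59139828-59139864 (+ strand, *SEC11C*), chr6:107958260-107958296 (- strand, *SEC63*) and chr6:7313316-7313352 (- strand, *SSR1*). In *SEC63* and *SSR1* the motif stands on the other strand, and in *SEC11C* and *SSR1* the stretch falls inside the GENCODE span of the gene, before a later start.
SEC11C: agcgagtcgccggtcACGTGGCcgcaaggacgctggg
SEC63: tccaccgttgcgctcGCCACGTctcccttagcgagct
SSR1: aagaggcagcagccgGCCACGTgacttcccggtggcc

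Folding and disulfide genes were the most abundant members, summing to 11424 and 11544 CPM in LNCaP and 7662 and 7648 CPM in LN-35. Of 9 genes 6 fell, 2 rose and 1 did not pass. *P4HB* (ENSG00000185624, chromosome 17, 81843159 to 81860694), the classical protein disulfide isomerase, had 1948 and 1971 CPM in LNCaP and 699 and 671 CPM in LN-35. *PDIA4* (ENSG00000155660, chromosome 7, 149003062 to 149028641), also called ERp72, had 1502 and 1446 against 571 and 539 CPM. These were the steepest falls of the group, at 2.86-fold and 2.66-fold, with log2 SE of 0.07 for each. *PDIA6* fell from 835 and 808 to 456 and 450 CPM, and *HYOU1*, an Hsp70-like exchange factor for BiP, from 1548 and 1419 to 919 and 908 CPM.

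*CALR*, *CANX* and *PDIA3* had smaller fold changes than *P4HB* and *PDIA4*. Calreticulin and calnexin hold glycoproteins that carry 1 glucose, and *PDIA3* (ERp57) works bound to them. *CALR* had 2498 and 2797 CPM in LNCaP and 2174 and 2125 CPM in LN-35, a log2 fold change of -0.30 (SE 0.07), and *PDIA3*, whose count is uncertain because of a near-identical processed copy, fell by 0.44 (SE 0.07). *CANX* was at 1542 and 1496 against 1676 and 1778 CPM, a log2 fold change of 0.18 (SE 0.07), so the membrane-bound chaperone and the luminal one went in different directions. *CANX* did not pass with the replicate block (edgeR adjusted p = 0.0579), nor when LN-35 replicate 1 (0.089) or 2 (0.31) was left out.

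The low-abundance isomerases are *PDIA2* and *PDIA5*. *PDIA2* (ENSG00000185615, chromosome 16, 283152 to 287215), an isomerase known from pancreas, rose from 22 and 37 counts to 53 and 64 counts (1.40 and 2.65 against 4.41 and 5.15 CPM), and its call was lost without LNCaP replicate 1 (log2 fold change 0.84, adjusted p = 0.0598). *PDIA5* overlapped between the lines, at 38.2 and 45.7 against 39.6 and 29.4 CPM, and did not pass (log2 fold change -0.28, 95% interval -0.57 to 0.00). Without LNCaP replicate 1 or LN-35 replicate 1 it stood at -0.41 and -0.50 and passed (adjusted p = 0.0165 and 0.00109).

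The complete ER stress response elements of the members were all in folding genes. Each is shown with 15 bases on either side and the element in capitals: the 19-base form in *CALR* (chr19:12938369-12938417, + strand, in reverse), *CANX* (chr5:179698763-179698811, + strand) and *PDIA6* (chr2:10812838-10812886, - strand), and the 11-base form at both of its places in *HYOU1* (chr11:119057365-119057405 and chr11:119057259-119057299, - strand, in reverse), on GRCh38.p14. The *CANX* and *PDIA6* stretches lie inside the GENCODE span of the gene, before a later start, and the others upstream of it.
CALR: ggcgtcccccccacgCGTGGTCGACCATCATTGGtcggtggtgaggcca
CANX: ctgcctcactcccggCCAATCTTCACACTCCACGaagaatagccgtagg
PDIA6: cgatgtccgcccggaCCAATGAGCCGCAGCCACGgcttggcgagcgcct
HYOU1, distal: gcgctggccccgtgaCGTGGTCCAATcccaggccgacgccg
HYOU1, proximal: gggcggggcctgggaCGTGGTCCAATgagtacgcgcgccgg
The genes with these elements had log2 fold changes of -0.30 (*CALR*), 0.18 (*CANX*), -0.86 (*PDIA6*) and -0.70 (*HYOU1*). The steepest falls of the folding group, *P4HB* and *PDIA4*, held CCAAT in their windows but not the complete element. *PDIA4* also held CCACG. The part of these elements in the fold changes was not tested.

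The COPII coat, which forms vesicles that leave the ER, was lower in most subunits and higher in the paralogs *SAR1A*, *SEC24B* and *SEC31B*. *SEC16B*, also higher, passed the filter only through LN-35. Of 14 genes 9 fell, 4 rose and 1 did not pass. The GTPase SAR1 starts the coat, SEC23 and SEC24 form its inner layer and choose cargo, and SEC13 and SEC31 form the outer cage. The SAR1 paralogs went apart. *SAR1B* (ENSG00000152700, chromosome 5, 134601144 to 134649271), the form needed for chylomicron export in the gut, was at 276 CPM in both LNCaP libraries and at 108 and 119 CPM in LN-35. *SAR1A* (ENSG00000079332, chromosome 10, 70147289 to 70170523) had 118 and 126 against 147 and 154 CPM. The log2 fold changes were -1.28 (SE 0.07) and 0.30 (SE 0.07), and *SAR1B* fell from 66.9% ± 1.07 to 40.3% ± 0.732 (SD, n = 2) of the pair's transcripts per kilobase of principal transcript. With summed exon lengths the shares were 58.8% and 32.3%. *SAR1B* has exonic positions in common with *SEC24A* on the opposite strand, and without strand use reads at these positions cannot be told apart.

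Both SEC23 paralogs fell. *SEC23B* (ENSG00000101310, chromosome 20, 18507482 to 18561415) had 298 and 296 CPM in LNCaP and 129 and 127 CPM in LN-35, and *SEC23A* (ENSG00000100934, chromosome 14, 39031919 to 39109646) had 198 and 167 against 101 and 101 CPM. *SEC23B* was the larger form in both lines, at 65.9% ± 2.57 and 60.1% ± 0.194 of the pair per kilobase of principal transcript. *SEC23IP* (ENSG00000107651, chromosome 10, 119892711 to 119944658), whose product binds SEC23 at ER exit sites, had 138 and 126 against 48.2 and 56.8 CPM. It showed the steepest fall of the COPII genes, 2.52-fold.

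The 4 SEC24 paralogs, which differ in the cargo signals they bind, did not move alike. *SEC24A* (ENSG00000113615, chromosome 5, 134648789 to 134727823) had 190 and 156 CPM in LNCaP and 85.9 and 94.9 CPM in LN-35. *SEC24B* (ENSG00000138802, chromosome 4, 109433772 to 109540896) had 53.6 and 54.2 against 78.3 and 87.6 CPM. Neither gene overlapped between the lines, and their log2 fold changes were -0.94 (SE 0.09) and 0.62 (SE 0.09). *SEC24C* (ENSG00000176986, chromosome 10, 73744384 to 73772161) had 231 and 216 CPM in LNCaP and 175 and 176 CPM in LN-35, a log2 fold change of -0.35 (SE 0.07). *SEC24D* (ENSG00000150961, chromosome 4, 118722823 to 118838683) had 128 CPM in both LNCaP libraries and 109 and 114 CPM in LN-35, a log2 fold change of -0.20 (SE 0.07). The *SEC24D* call rested on both LN-35 libraries, since leaving out replicate 1 or 2 gave an adjusted p of 0.179 or 0.0571. Per kilobase of summed exons, *SEC24B* made up 11.6% ± 0.797 of the 4 paralogs in LNCaP and 21.9% ± 0.967 in LN-35, while *SEC24C* held the largest share in both (47.0% ± 0.496 and 45.3% ± 1.49).

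In the outer cage the main genes fell and the minor one rose. *SEC31A* (ENSG00000138674, chromosome 4, 82818661 to 82901166) had 251 and 240 CPM in LNCaP and 141 and 142 CPM in LN-35, and *SEC13* 108 and 102 against 76.5 and 69.6 CPM. *SEC31B* (ENSG00000075826, chromosome 10, 100486642 to 100519864), the minor cage paralog, rose from 9.39 and 11.4 to 20.1 and 14.6 CPM, and from 4.66% ± 0.742 to 12.3% ± 2.52 of the pair per kilobase of summed exons. It shares exonic positions with ENSG00000255339 on the same strand, which had a log2 fold change of 0.696. The division of reads between *SEC31B* and that gene is uncertain, and so are the level and share of *SEC31B*. *SEC16A* (ENSG00000148396, chromosome 9, 136440096 to 136483759), which marks exit sites, did not pass, at 299 and 273 against 303 and 299 CPM (log2 fold change 0.08, 95% interval -0.07 to 0.22). Without LNCaP replicate 1 its value was 0.14 and passed (adjusted p = 0.0416). *SEC16B* (ENSG00000120341, chromosome 1, 177923956 to 177984303), its minor paralog, rose from 7 and 4 counts to 33 and 41 counts, or 0.444 and 0.287 against 2.75 and 3.3 CPM, and went from 0.171% ± 0.0414 to 1.34% ± 0.183 of the pair per kilobase of summed exons.

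**Figure D3:**
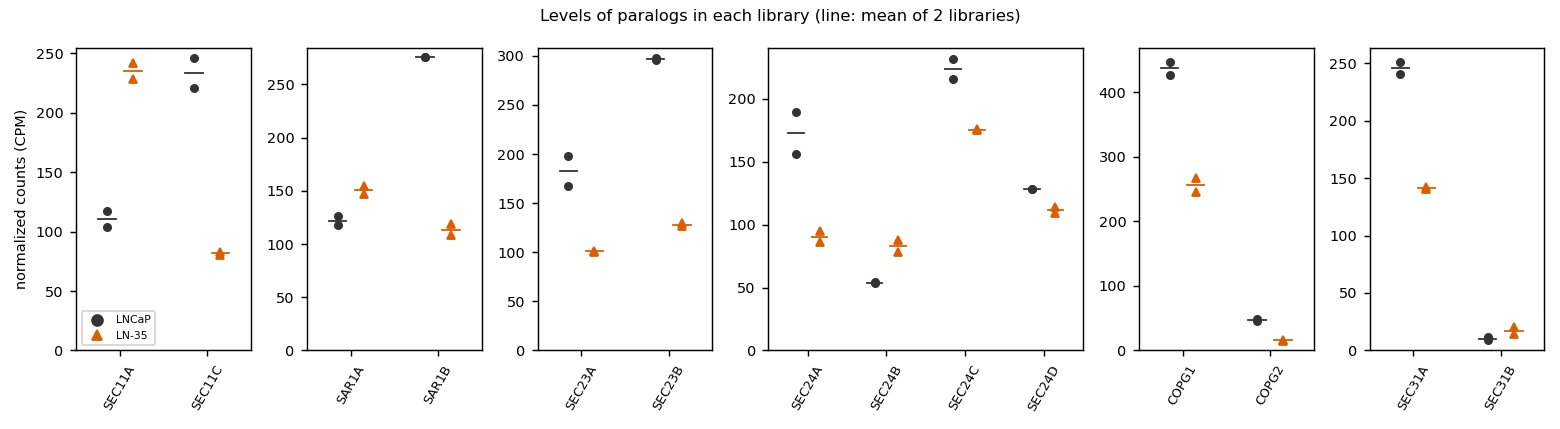
Level in each library (y axis, CPM scaled with TMM factors, from 0) of 6 sets of paralogs in LNCaP (circles) and LN-35 (triangles), with a line at the mean of 2 libraries. The order of *SEC11A* and *SEC11C* and that of *SAR1A* and *SAR1B* reversed between the lines, whereas *SEC23A* and *SEC23B* and also *COPG1* and *COPG2* fell together. Levels of different genes are not scaled by length here.

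The COPI coat, which returns proteins from the Golgi to the ER, was uneven. Of 8 genes 5 fell, 2 rose and 1 did not pass. The coat holds 7 kinds of subunit, of which the delta subunit *ARCN1*, outside the members and named after its values were seen, fell by 0.33 (SE 0.07). The γ subunit genes fell: *COPG1* (ENSG00000181789, chromosome 3, 129249606 to 129277773) had 447 and 427 CPM in LNCaP and 245 and 268 CPM in LN-35. *COPG2* (ENSG00000158623, chromosome 7, 130506238 to 130668748) had 45.9 and 48.2 against 14.9 and 16.1 CPM, the steepest fall among all members with a log2 fold change of -1.60 (SE 0.12). Its share of the pair per kilobase of principal transcript went from 9.56% ± 0.576 to 5.61% ± 0.0462. *COPG2* shares exonic positions with *MEST* on the opposite strand, which had a log2 fold change of 2.83, and without strand use reads of the pair cannot be told apart.

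The main ζ gene and the ε gene also fell. *COPZ1* (ENSG00000111481, chromosome 12, 54301202 to 54351849) had 224 and 251 CPM in LNCaP and 144 and 134 CPM in LN-35, a log2 fold change of -0.78 (SE 0.07). *COPZ2* (ENSG00000005243, chromosome 17, 48026167 to 48038030), the second ζ gene, had no LNCaP counts and 37 counts in each LN-35 library (3.08 and 2.98 CPM), at least 30.0-fold higher against a floor of 3 counts over both LNCaP libraries. It passed the filter only through LN-35, and in LN-35 it made up 4.43% ± 0.115 of the ζ transcripts per kilobase of principal transcript. *COPE* was at 114 and 113 against 62.9 and 51.3 CPM.

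The remaining COPI subunits form the outer layer (α, β′, ε) or the inner one (β). *COPB1*, the β subunit, fell by 0.44 (SE 0.07), while *COPB2*, the β′ subunit, rose from 254 and 228 to 298 and 312 CPM, a log2 fold change of 0.34 (SE 0.07). *COPA*, the α subunit, had 393 and 360 against 403 and 433 CPM and did not pass (log2 fold change 0.15, SE 0.07, 95% interval 0.00 to 0.30). Without LNCaP replicate 1 its value was 0.21 and passed (adjusted p = 0.00297). Members of this 1 complex thus spanned log2 fold changes from -1.60 to 0.34 among the genes with counts in both lines.

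Most genes with a TMED symbol, grouped here as p24 cargo receptors by name alone, fell. Of 10 tested TMED genes 6 fell, 3 rose and 1 did not pass. *TMED9* (ENSG00000184840, chromosome 5, 177592158 to 177596124) had 166 and 164 CPM in LNCaP and 63.6 and 70.0 CPM in LN-35, which is 2.47-fold lower. The abundant partners *TMED10* and *TMED2*, which form hetero-oligomers with the other p24 proteins, had 782 and 849 against 458 and 478 CPM and 699 and 722 against 492 and 504 CPM. *TMED5*, *TMED7* and *TMED3* fell by 0.85, 0.82 and 0.52 on the log2 scale (SE 0.07 each). *TMED4* rose from 102 and 106 to 171 and 165 CPM, in contrast to *TMED9*, a member of the same p24 subfamily.

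The readthrough gene *TMED7-TICAM2* (ENSG00000251201, chromosome 5, 115578642 to 115626161), which joins *TMED7* to the neighbouring adaptor gene *TICAM2*, had 11.9 and 10.3 CPM in LNCaP and 46.2 and 52.6 CPM in LN-35. It shares exons with *TMED7*, so the division of reads between it and *TMED7* is uncertain. Without it, 40 of 58 tested members fell, 12 rose, and the median log2 fold change was -0.48. *TMED1* (23.4 and 20.0 against 18.7 and 18.1 CPM) did not pass, with a log2 fold change of -0.24 (95% interval -0.53 to 0.05), and passed without LNCaP replicate 2 (-0.35, adjusted p = 0.0481). *TMED8* was higher by 0.21 (SE 0.08), a call lost without LNCaP replicate 2 (adjusted p = 0.0985) or LN-35 replicate 2 (0.196).

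*SEC22B* (ENSG00000265808, chromosome 1, 120150898 to 120176515), a SNARE that fuses vesicles between ER and Golgi, had 211 and 243 CPM in LNCaP and 144 and 161 CPM in LN-35, a log2 fold change of -0.57 (SE 0.08). The gene has near-identical copies elsewhere, so its count is uncertain. Its relative *SEC22A* (20.6 and 20.1 against 18.4 and 19.8 CPM) did not pass, with a log2 fold change of -0.09 (95% interval -0.37 to 0.19). *SEC22C* fell by 0.21 (SE 0.09), a call that ended on leaving out LNCaP replicate 2 (adjusted p = 0.0882) or either LN-35 library (0.108 and 0.189).

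The genes around each member were also read. Within 2 Mb to each side, the median log2 fold change of the other tested genes lay between -0.46 and 0.84 for all but 3 members. Those 3 were the signal peptidase genes *SEC11C* and *SPCS3* and the COPII gene *SEC24D*, and the neighbours named here were chosen after their values were seen. Around *SEC11C* 9 of 10 tested neighbours fell and 1 rose, with a median of -1.83. Among them was *LMAN1*, which encodes the ER cargo receptor ERGIC-53, 195 kb away, at 766 and 729 CPM in LNCaP and 172 and 181 CPM in LN-35. *ZNF532* and *MALT1*, whose products have no known part in secretion, fell by 3.91 and 2.03 on the log2 scale in the same interval. *CCBE1*, also in this interval, had no LN-35 counts and passed the filter only through LNCaP, so it could count only as a fall.

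Around *SPCS3* 4 of 6 tested neighbours were called higher and 1 lower, with a median of 7.67. *HPGD* (0.571 and 0.574 CPM in LNCaP), *GPM6A* and *VEGFC* (no LNCaP counts) passed the filter only through LN-35. These neighbours could enter the count and the median only as rises. *GPM6A*, a neuronal membrane glycoprotein gene 508 kb away, had no counts in LNCaP and 71.7 and 74.7 CPM in LN-35, and *WDR17*, 202 kb away, went from 1.84 and 0.932 to 234 and 243 CPM. *SEC24D*, in contrast, was slightly lower while 7 of its 9 neighbours were higher (median 1.44). Among these 7, *NDST3*, *PRSS12* and *SYNPO2* passed the filter only through LN-35 and could count only as rises. *SEC11A* and *P4HB* had neighbours with medians of 0.02 and -0.05. The part of the surrounding region in these values was not tested.

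**Figure D4:**
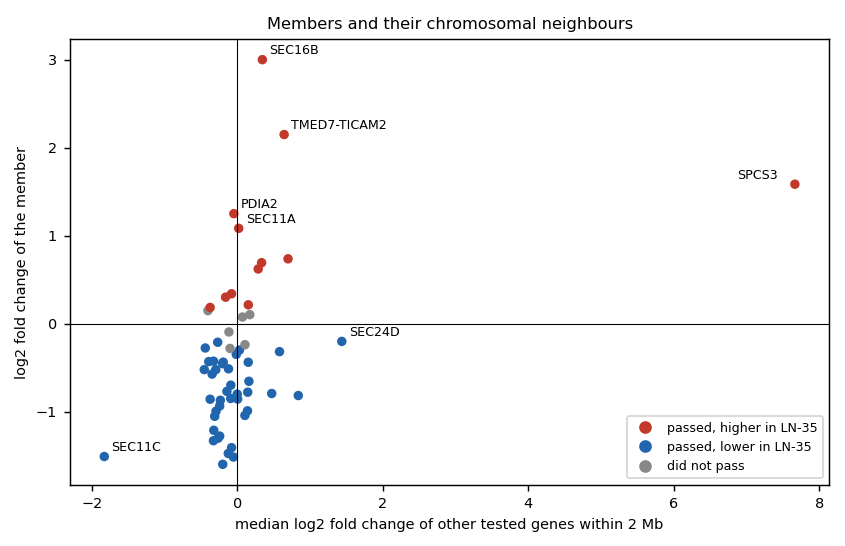
Log2 fold change of each member (y axis) against the median log2 fold change of the other tested genes within 2 Mb to each side (x axis), for 58 members with at least 5 such neighbours, coloured by the outcome of the test; *COPZ2* is not drawn. Most members lie near 0 on the x axis at any height, while *SEC11C* (-1.83) and *SPCS3* (7.67) sit with their neighbours on the same side of 0. The value for *SPCS3* includes *HPGD*, *GPM6A* and *VEGFC*, which passed the filter only through LN-35.

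Other genes of the secretory pathway were taken from 8 lists that complement the members. Of 165 tested genes 91 fell, 37 rose and 37 did not pass, with a median of -0.31, beside 35.5% lower, 36.4% higher and a median of -0.01 over all tested genes. The lists of cargo receptors (median -0.13) and transcription factors (median -0.04) lay nearest to all genes. The signal recognition particle and its receptor, which bring ribosomes to the channel, had 6 of 8 genes lower and 2 that did not pass (median -0.69). *SRP54*, the subunit that binds the signal peptide, went from 169.5 ± 0.464 to 92.6 ± 2.14 CPM, and *SRPRB*, a receptor subunit, from 131 ± 2.16 to 69.7 ± 2.51 CPM (SD, n = 2 per line). Other translocation genes fell in 11 of 20 cases and rose in 4, with *SERP1*, a stress-associated channel partner, at -1.37 (SE 0.07) and *TRAM2* at 0.99 (SE 0.10). *CCDC47*, part of a translocon for membrane proteins with several spans, fell by 1.13, and *GET1*, a receptor for tail-anchored proteins, rose by 0.43.

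The oligosaccharyltransferase, which attaches N-glycans at the channel, had 7 of 12 genes lower and 2 higher. *TUSC3* and *MAGT1* encode alternative oxidoreductase subunits of this enzyme. *TUSC3* rose from 58.1 ± 2.95 to 167.4 ± 4.03 CPM and *MAGT1* fell from 257 ± 11.1 to 153 ± 3.25 CPM, so this pair of alternatives, like *SEC11A* and *SEC11C*, moved in opposite directions. *DAD1* fell by 1.11 (SE 0.10) and *DDOST* rose by 0.43 (SE 0.07).

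Other ER chaperones and oxidoreductases had 22 of 40 genes lower and 12 higher (median -0.50), and the list summed to 19069 and 18770 CPM in LNCaP and 10615 and 10831 CPM in LN-35. *HSP90B1*, the ER form of Hsp90, fell from 5621 ± 19.6 to 1904 ± 40.9 CPM, and *UGGT1*, which checks the folding of glycoproteins, from 306 ± 11.3 to 101 ± 5.13 CPM. *HSPA5*, which encodes BiP and was named here after its values were seen, fell from 6880 to 3608 CPM, a log2 fold change of -0.93 (SE 0.07). Higher in LN-35 were *DNAJC1*, a membrane cochaperone of BiP, from 34.3 ± 2.24 to 135 ± 7.48 CPM, and *MOGS*, which trims the first glucose from N-glycans, from 38.4 ± 3.3 to 83.6 ± 4.70 CPM. ER-associated degradation, the disposal route for misfolded proteins, had 14 of 19 genes lower and 2 higher, among them *HERPUD1* at -1.06, *VCP* at -0.97, *UBE2J1* at 0.51 and *EDEM3* at 0.16 (SE 0.07 each).

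Receptors that sort cargo between ER and Golgi had 8 of 18 genes lower and 5 higher. *LMAN1*, given above as a neighbour of *SEC11C*, fell by 2.08 on the log2 scale (SE 0.07), and *ERGIC1* fell from 616 ± 28.5 to 171 ± 1.98 CPM. The KDEL receptors, which retrieve escaped chaperones through COPI, were higher: *KDELR1* rose from 131 ± 4.96 to 255 ± 10.3 CPM and *KDELR3* from 12.1 ± 1.01 to 35.1 ± 1.09 CPM. *KDELR2*, named after its values were seen, rose by 0.22 (SE 0.07). Regulators and partners of both coats fell in 18 of 37 cases and rose in 8, including *SCFD1* at -0.86, *ARFGAP3* at -0.80, *GOLGA2* at 0.71 and *ARF5* at 1.01. Of 11 tested transcription factors and activators of secretory genes 5 fell and 4 rose. *ERN1*, which encodes the stress sensor IRE1, fell by 0.98 (SE 0.08) and *TFE3*, which acts in the Golgi stress response, by 0.67 (SE 0.08). *ATF6B* and *CREB3L2* rose by 1.30 (SE 0.10) and 1.05 (SE 0.07). *CREB3L1*, also named after its values were seen, had the largest change of the list, a log2 fold change of 5.26 (SE 0.64). It went from 0.0635 and 0.143 to 4.41 and 4.02 CPM and passed the filter only through LN-35. *XBP1* (log2 fold change 0.02, SE 0.07) and *ATF6* (-0.04, SE 0.07), named after their values were seen, did not pass.

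**Figure D5:**
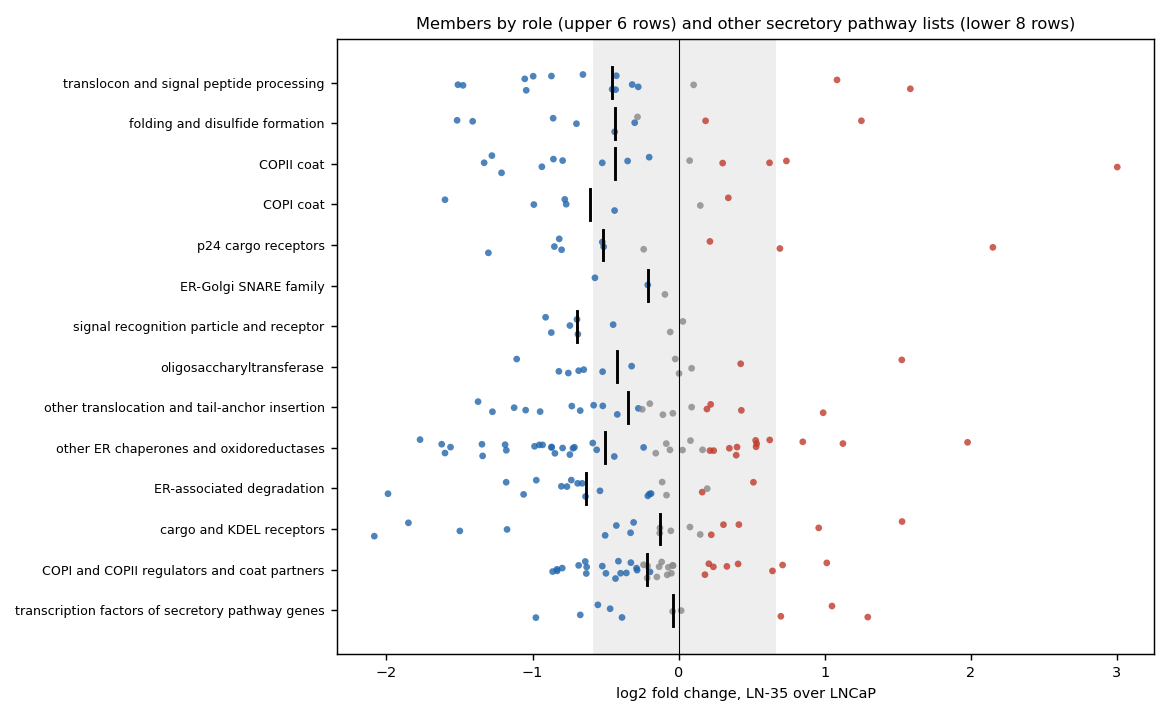
Log2 fold change (LN-35 over LNCaP, x axis) of every tested gene with an absolute value under 4, for the members by role (upper 6 rows) and for 8 other secretory pathway lists (lower 8 rows), coloured blue where lower, red where higher and grey where the test was not passed. Black bars are list medians and the grey band spans the quartiles of all tested genes, -0.58 to 0.66. List medians ran from -0.69 (signal recognition particle and receptor) to -0.04 (transcription factors).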

How the data were processed

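Each value in the table that the authors deposited is an estimated count for an Ensembl gene, without scaling. HISAT2 2.0.5 is named with featureCounts 1.5.0-p3 and hg38 in the submitters' processing notes. Fractional values made up 11.49% to 12.00% per library. How the fractions arose, and any use of strand, are not given in the sources used. Reads of overlapping or near-identical genes are therefore uncertain, and 25 members share exonic positions with another gene of the table. Counts were rounded. Symbols were found for 20304 of 20332 identifiers, and positions are from GENCODE 29 (GRCh38).

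Genes were kept by filterByExpr (minimum count 10), scaled with TMM and compared between 2 LNCaP and 2 LN-35 libraries by the quasi-likelihood test of edgeR (two-sided, robust, design by line alone), called at an adjusted p under 0.05 over 13744 genes. SEs come from this fit. A group without counts was set at a floor of 3 counts (0.101 CPM in LNCaP). Intervals and floors cover counting error only where they rest on counts. Members and lists were chosen with earlier results of these data known. Values in every library are given for members with an absolute log2 fold change of at least 1, the steepest called rise and fall of each role and 9 sets of paralogs. In the other lists up to 2 called genes per direction by adjusted p are named, with means or fold changes. The labels number the libraries of each line 1 and 2 under a batch tag; deviations from the line means correlated at 0.01 between libraries of the same number, and a fit with the number as a block was run beside the main one. Other alternatives were DESeq2's test and size factors, library totals, no filter, no mitochondrially encoded genes and each library left out. Fits used edgeR 4.0.16, DESeq2 1.42.0 and limma 3.58.1 in R 4.3.3. Tables and plots used numpy 2.4.6, matplotlib 3.10.9 and pandas 2.3.3 in Python 3.11.15. Promoter windows are from RefSeq (GRCh38.p14).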

Additional observations from a re-analysis of the deposited data

How the results depend on the processing

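Of the 53 called members, 46 kept their call under every alternative, and no called member changed sign; the 6 that did not pass include *SEC22A*, which passed under none. With the replicate block 12 members were higher and 40 lower, and *CANX* was the one call that differed. The median log2 fold change of the members was -0.44 with DESeq2 size factors and -0.53 with library totals alone, which moved the median of all tested genes to 0.01 and -0.08. Leaving out 1 library gave medians from -0.49 to -0.46, 11 to 14 members higher and 37 to 40 lower. *SEC16A*, which did not pass, was at -0.0018 with library totals alone. DESeq2's test lost the calls of *SEC61A2*, *SEC61G*, *SEC24D*, *SEC22C* and *TMED8*. DESeq2 size factors ended the call of *SEC22C* and called *COPA*, library totals ended those of *CANX* and *TMED8* and called *PDIA5* and *TMED1*, and the fit without a filter called *PDIA5*. The cause was not tested. Using only the 250 bases before the start, ACGTGGC stood in 32.7% of members and TGACGTGG in 14.5%. Members under 50 counts in a library (*SEC16B*, *PDIA2*, *COPZ2*, *TMED6*) are limited by depth.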
